A study of Mus musculus with 2 samples.

Results

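NRF2 (gene Nfe2l2), its inhibitor KEAP1 and 8 antioxidant genes that NRF2 is known to activate were followed in cultured mouse hepatocytes exposed to an agonist of the liver X receptors (LXR). The members were taken by symbol from the deposited gene table: Nfe2l2, Keap1, Nqo1, Hmox1, Gclc, Gclm, Txnrd1, Srxn1, Slc7a11 and Osgin1, and all 10 were found among its 36808 genes. The tested culture consisted of primary hepatocytes from C57Bl6 mice that had received 1 µM GW3965, a synthetic LXR agonist, and the control culture had received the solvent DMSO. Both were kept in William E medium with serum, insulin and dexamethasone, a glucocorticoid that both cultures therefore share. Each group had 1 RNA sequencing library, so no difference below has a replicate check, and neither the number of animals behind a library nor the length of treatment is known here. In the table the libraries are called DMSO and GL; the second name was taken to mean GW3965, the one other sample described, and this reading is not certain.

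KEAP1 holds NRF2 in the cytosol and hands it to a cullin-3 ubiquitin ligase for degradation. Oxidants and electrophiles modify cysteines of KEAP1, NRF2 then escapes, enters the nucleus and, paired with a small MAF protein, binds antioxidant response elements in DNA. Much of this control acts on the NRF2 protein, so the level of Nfe2l2 mRNA is not a measure of NRF2 activity. In liver the pathway is known for supplying glutathione, thioredoxin and detoxifying enzymes against reactive metabolites.

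The promoters of 4 members are shown so that motif letters can be set beside the values below: Slc7a11 and Nfe2l2 are 2 of the 3 members whose log2 ratio was at least 0.32 in size, and Srxn1 and Osgin1 are 2 that did not. Each stretch holds the 250 bases before the RefSeq start on the strand of the gene, 5′ to 3′ (build GRCm38.p6). Capitals mark 2 kinds of motif on either strand: the core of the antioxidant response element, searched as TGACNNNGC and TGAGNNNGC, and TGATGCAA, the letters of a C/EBP-ATF element of the kind that ATF4, the factor of the amino acid response, binds.
Slc7a11 (chr3:50443614-50443863, minus strand): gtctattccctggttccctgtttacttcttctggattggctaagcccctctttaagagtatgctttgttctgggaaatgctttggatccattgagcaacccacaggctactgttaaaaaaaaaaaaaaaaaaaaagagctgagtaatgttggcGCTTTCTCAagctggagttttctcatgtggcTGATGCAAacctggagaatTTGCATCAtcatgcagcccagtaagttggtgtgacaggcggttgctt
Nfe2l2 (chr2:75704664-75704913, minus strand): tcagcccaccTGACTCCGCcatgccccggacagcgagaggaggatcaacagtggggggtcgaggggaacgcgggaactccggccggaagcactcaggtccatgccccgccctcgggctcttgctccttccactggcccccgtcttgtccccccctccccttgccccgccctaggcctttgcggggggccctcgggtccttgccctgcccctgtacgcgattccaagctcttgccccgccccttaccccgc
Srxn1 (chr2:152105274-152105523, plus strand): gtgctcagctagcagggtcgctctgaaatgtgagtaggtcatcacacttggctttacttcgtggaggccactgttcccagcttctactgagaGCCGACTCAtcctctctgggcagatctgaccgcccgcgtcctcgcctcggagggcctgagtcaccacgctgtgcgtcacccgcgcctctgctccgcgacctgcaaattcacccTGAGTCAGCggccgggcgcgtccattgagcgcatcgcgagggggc
Osgin1 (chr8:119436897-119437146, plus strand): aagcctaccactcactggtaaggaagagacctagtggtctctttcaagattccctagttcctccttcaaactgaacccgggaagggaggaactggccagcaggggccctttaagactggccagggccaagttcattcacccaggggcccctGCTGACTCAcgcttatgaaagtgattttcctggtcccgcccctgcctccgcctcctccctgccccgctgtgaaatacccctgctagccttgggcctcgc

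RefSeq windows of 300 bases, running from 250 before to 50 after a start, were found for 8 members, Txnrd1 with 3 starts, which made 10 windows. Hmox1 and Gclc had none in the table used. One or both forms of the antioxidant response core occurred in windows of 6 members, namely Nfe2l2, Gclm, Txnrd1, Srxn1, Slc7a11 and Osgin1. The same letters are common, since 27.8% of all 32851 windows hold at least 1 form (12.4% the C form and 17.6% the G form). In Osgin1 at bases -99 to -91 and in Srxn1 at -45 to -37 the match read TGAGTCAGC, and there it overlapped the AP-1 letters TGANTCA, which 7.81% of all windows hold. Slc7a11 was the 1 member with TGATGCAA, found in both orientations at -66 to -59 and -47 to -40, against 0.895% of all windows with any match. Nqo1 and Keap1 had no match to any of these letters within their windows. Bases outside the windows were not searched, so matches further from the starts are not known here. A match describes letters only and does not show that a factor was bound.

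**Figure D1:**
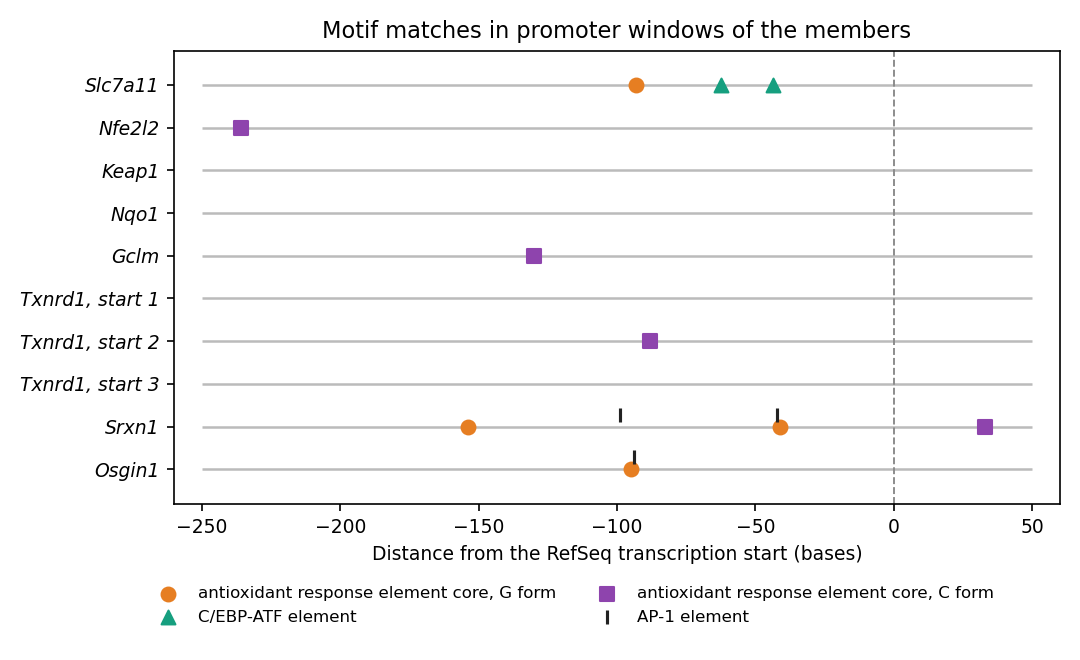
Positions of motif matches (coloured marks) in the 10 RefSeq promoter windows of 8 members; the horizontal axis is the distance from the transcription start in bases and each grey line is a window of 300 bases. The pair of triangles in Slc7a11 lies at -66 to -40, and AP-1 ticks overlap the antioxidant response core in Osgin1 and 1 of the 3 cores in Srxn1, which has a second tick at -102 to -96 on no core.

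Expression was given as FPKM, fragment numbers scaled to transcript length and library size, so levels can be compared between genes. Steps between the lowest values put the depth at about 78500000 fragments for GW3965 and 63300000 for DMSO. Ratios are the log2 of FPKM + 1 in GW3965 divided by FPKM + 1 in DMSO; adding 1 makes differences of low genes look smaller. Counts use the 11796 genes that reached 1 FPKM in either library, and their median ratio was 0.01. Known LXR targets differed as a check of the treatment: all 7 of a short list were at least 1.5-fold higher in GW3965, with Abca1 at 81.1 FPKM in GW3965 and 14.6 FPKM in DMSO, Scd1 at 980 and 206 FPKM, and Abcg1 at 16.3 and 3.28 FPKM. That list was chosen with earlier results of these data known, which limits the check. The authors' deposited table calls 4 of the 7, against 0.166% of its tested genes called as higher. Hepatocyte genes such as Apoa1 (660 FPKM in GW3965 and 598 FPKM in DMSO) and F2 (316 FPKM in both) were abundant, while Cps1 (2.1 and 1.5 FPKM) and Tat (0.447 and 0.962 FPKM) were low in both libraries.

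Of the 10 members, Hmox1 alone was at least 1.5-fold higher in GW3965 and 0 were at least 1.5-fold lower. Over all genes at the minimum FPKM, 1.02% were that much higher and 1.33% that much lower. At a lower threshold, a log2 ratio of 0.32 in size, Hmox1 and Slc7a11 were higher and Nfe2l2 was lower, against backgrounds of 3.93% higher and 5.32% lower. At 2-fold no member was higher or lower (backgrounds 0.331% and 0.466%). The other 7 members lay within 0.32 of 0, as did 90.8% of all genes. Ratios of 6 members were above 0 and of 4 below, with a median of 0.06, and they ran from -0.50 for Nfe2l2 to 0.86 for Hmox1. The authors' deposited table calls 1 of the 10 members, Hmox1, and over its 15090 tested genes it calls 0.166% as higher and 0.119% as lower. That test compares the reads of 2 libraries, not the conditions.

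**Figure D2:**
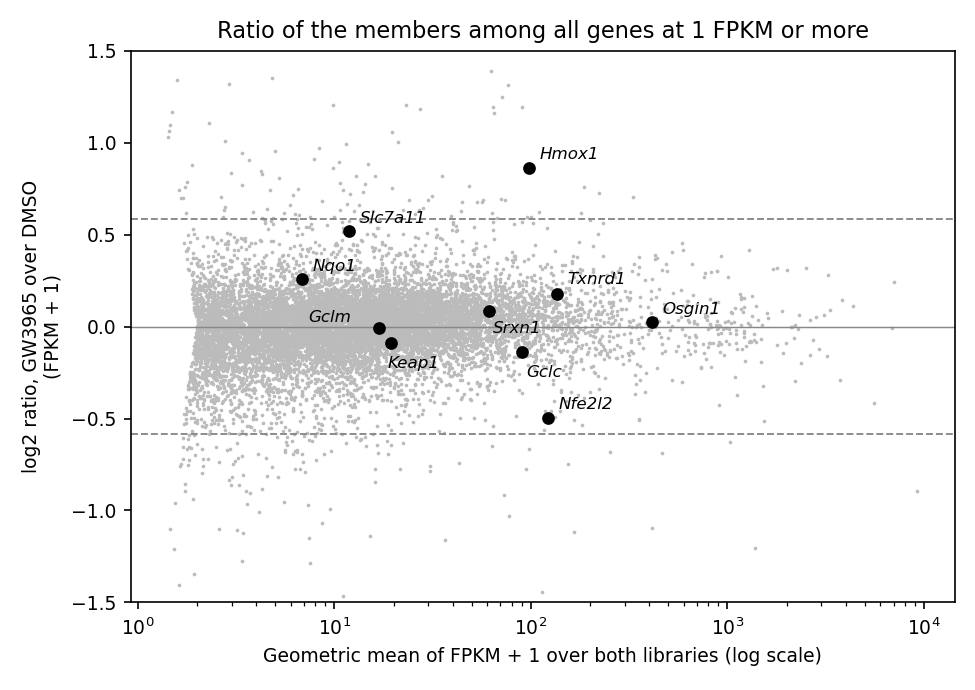
Log2 ratio of GW3965 over DMSO (vertical axis, FPKM + 1) against the geometric mean of FPKM + 1 in both libraries (horizontal log axis) for genes at 1 FPKM or more; grey points are all genes, black points the 10 members, and dashed lines mark 1.5-fold. Hmox1 at 0.86 is the member beyond a dashed line, and 54 genes lie outside the plotted range of 1.5 on either side.

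Hmox1 encodes heme oxygenase 1, which splits heme into biliverdin, carbon monoxide and iron (ENSMUSG00000005413, chromosome 8, 77617490 to 77624495, mm9). Its level was 130 FPKM in GW3965 and 71.2 FPKM in DMSO, a 1.83-fold difference in FPKM. Only 48 other genes of the 11796 had a ratio as high or higher. From its shortest annotated transcript at least about 6341 fragments in GW3965 and 2780 in DMSO lay behind these levels, and counting alone leaves a 95% interval of 1.75 to 1.92 for the fold. Hmox1 had p = 1.66e-05 and q = 0.00752 in the authors' deposited table, and the standard error of the log2 fold derived from its score is 0.20. Hmox2, the constitutive heme oxygenase, stood at 38.0 FPKM in GW3965 and 39.8 FPKM in DMSO. Hmox1 was thus 3.43 times as abundant as Hmox2 in GW3965 and 1.79 times in DMSO.

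Liver macrophages also express Hmox1, so their markers are given beside it. Of 10 macrophage markers 7 reached 1 FPKM, with a median ratio of -0.06, and none was at 0 in both libraries. Their FPKM summed to 204 in GW3965 and 198 in DMSO, mostly Cd68 (93.9 and 74.9 FPKM) and Cd14 (99.3 and 111 FPKM). Adgre1, which encodes F4/80, was at 1.12 FPKM in GW3965 and 1.34 FPKM in DMSO, and Clec4f of Kupffer cells at 3.11 and 2.99 FPKM. The part of macrophages in the Hmox1 difference was not tested. In bulk RNA fewer cells of a type and less RNA per cell cannot be told apart.

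Slc7a11 encodes xCT, the cystine importer that feeds glutathione synthesis (ENSMUSG00000027737, chromosome 3, 50168858 to 50247535). Its level was 13.3 FPKM in GW3965 and 9.0 FPKM in DMSO, a 1.48-fold difference in FPKM and a ratio of 0.52. Of all genes at the minimum FPKM, 3.17% had a ratio at least as large in size. Its shortest transcript gives about 340 fragments in GW3965 and 184 in DMSO, so the counting interval of the fold was wider, at 1.23 to 1.78. In the authors' deposited table Slc7a11 had p = 0.00328 and q = 0.397 and was not called. The standard error of its log2 fold derived from the authors' score is 0.19. Slc3a2, the heavy chain that xCT needs at the membrane, was at 93.1 FPKM in GW3965 and 79.7 FPKM in DMSO, so that it exceeded Slc7a11 7.01-fold in GW3965 and 8.89-fold in DMSO.

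Nfe2l2 itself was lower in GW3965 (ENSMUSG00000015839, chromosome 2, 75513570 to 75542698). It had 102 FPKM in GW3965 and 144 FPKM in DMSO, a fold of 0.707 and a ratio of -0.50. Only 249 other genes had a ratio as low or lower. At the shortest transcript about 10336 fragments in GW3965 and 11760 in DMSO lay behind it, with a counting interval of 0.689 to 0.726 for the fold. Nfe2l2 had p = 0.00924 and q = 0.733 in the authors' deposited table and was not called. The standard error of its log2 fold derived from the authors' score is 0.19, wider than the counting interval, which covers counting error only. An unadjusted p under 0.05 in the authors' deposited table was held by 3 members, Hmox1 and Slc7a11 on the higher side (1.48% of tested genes) and Nfe2l2 on the lower (1.86%).

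Nfe2l2 was thus lower and its target Hmox1 higher in GW3965. Within a library, Hmox1 had 1.28 times the level of Nfe2l2 in GW3965 and 0.494 times in DMSO. Among the members ordered by level, Nfe2l2 was the fourth in GW3965 and the second in DMSO, and Hmox1 was the third in GW3965 and the fifth in DMSO. With 1 library per group these orders carry no replicate spread.

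Keap1, the sensor that retains NRF2 (ENSMUSG00000003308, chromosome 9, 21029815 to 21043776), was at 17.9 FPKM in GW3965 and 19.1 FPKM in DMSO (ratio -0.09). The level of Keap1 relative to that of Nfe2l2 was 0.176 in GW3965 and 0.133 in DMSO. Cul3, the cullin of the same ligase, was at 46.4 FPKM in GW3965 and 44.1 FPKM in DMSO. The Keap1 locus of the table also holds Gm16754, at 0.669 and 0.552 FPKM.

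**Figure D3:**
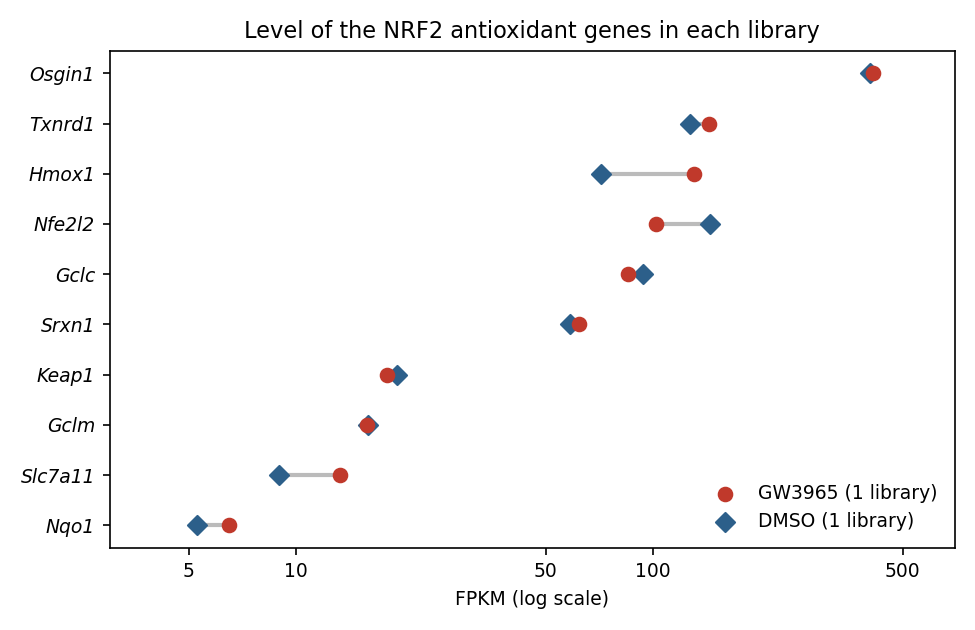
FPKM (log axis) of the 10 members, with red circles for the GW3965 library and blue diamonds for the DMSO library, ordered by the GW3965 level. Gaps between the marks are widest for Hmox1 (130 and 71.2), Slc7a11 (13.3 and 9.0) and Nfe2l2 (102 and 144), and the marks of Osgin1, Gclm and Srxn1 nearly coincide.

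Glutamate-cysteine ligase, which makes the first and limiting step of glutathione synthesis, has a catalytic subunit, Gclc, and a modifier subunit, Gclm. Gclc (ENSMUSG00000032350, chromosome 9, 77602342 to 77642292) was at 85.0 FPKM in GW3965 and 93.6 FPKM in DMSO, a ratio of -0.14. Gclm (ENSMUSG00000028124, chromosome 3, 121948475 to 121996467) was at 15.8 FPKM in both, a ratio of -0.01. The catalytic transcript exceeded the modifier transcript 5.39-fold in GW3965 and 5.91-fold in DMSO. Gclm shares its locus in the table with Dnttip2, at 31.3 FPKM in GW3965 and 30.5 FPKM in DMSO, so reads of the 2 genes may not be fully separated. Neither subunit was called in the authors' deposited table, with p = 0.465 for Gclc and p = 0.976 for Gclm.

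Txnrd1 and Srxn1 serve the thiol peroxidase cycle. Txnrd1, the cytosolic thioredoxin reductase that reduces thioredoxin with NADPH (ENSMUSG00000020250, chromosome 10, 82296696 to 82360469), was at 144 FPKM in GW3965 and 127 FPKM in DMSO, a ratio of 0.18. Its mitochondrial relative Txnrd2 was at 20.5 FPKM in GW3965 and 20.9 FPKM in DMSO. Srxn1, sulfiredoxin, which repairs overoxidized peroxiredoxins (ENSMUSG00000032802, chromosome 2, 151931252 to 151937112), was at 62.1 FPKM in GW3965 and 58.4 FPKM in DMSO, a ratio of 0.09. The authors' deposited table gives p = 0.395 for Txnrd1 and p = 0.728 for Srxn1. The window of Srxn1 held the most antioxidant response cores of the members, 3, and that of Txnrd1 held 1, at -92 to -84 of the second of its starts. Of the 3 in Srxn1, 1 lies after the start, at 29 to 37, and so outside the printed stretch.

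Nqo1, the quinone reductase often used as a readout of NRF2 (ENSMUSG00000003849, chromosome 8, 109912125 to 109927106), was the lowest member, at 6.5 FPKM in GW3965 and 5.3 FPKM in DMSO. Its ratio was 0.26, and 14.4% of genes had a ratio at least as large in size. About 713 fragments in GW3965 and 466 in DMSO lay behind it, with a counting interval of 1.09 to 1.39 for the fold of 1.23, while the authors' deposited table gives p = 0.259 for Nqo1. Osgin1, an NRF2-induced gene linked to growth inhibition (ENSMUSG00000074063, chromosome 8, 121958024 to 121970156), was at the other end of the scale, at 413 FPKM in GW3965 and 406 FPKM in DMSO. Its ratio was 0.03, with p = 0.937 in the authors' deposited table. Of the 11796 genes, 197 in GW3965 and 195 in DMSO stood above Osgin1, and its level was 63.6 times that of Nqo1 in GW3965 and 77.0 times in DMSO. The 6 members Osgin1, Txnrd1, Hmox1, Nfe2l2, Gclc and Srxn1 had at least 50 FPKM in both libraries, as did 14.1% of all genes in GW3965 and 13.5% in DMSO.

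The wider pathway was read from lists chosen, like the members, with earlier results of these data known. Of 35 further NRF2 targets 34 reached 1 FPKM, 0 of them at least 1.5-fold higher or lower. Ratios of 23 of the 34 were above 0, as were 52.9% of all genes, with a median of 0.12 against 0.01. The largest were Pgd of the pentose phosphate pathway, at 281 FPKM in GW3965 and 189 FPKM in DMSO (0.56), the glutathione transferase Gsta1, at 98.2 and 66.3 FPKM (0.56), and the canalicular exporter Abcc2, at 76.1 and 52.7 FPKM (0.52). Gsta1 has near-identical relatives, so its value is uncertain where reads were shared. Fth1, the ferritin heavy chain that stores iron released from heme, was at 3594 FPKM in GW3965 and 2956 FPKM in DMSO (0.28). The ferritin light chain Ftl1 was at 2374 FPKM in GW3965 and 2275 FPKM in DMSO (0.06). Both were named after their values were seen.

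Partners and regulators of NRF2 differed little. Of 17 listed genes 16 reached 1 FPKM and 0 passed 1.5-fold in either direction, with a median of 0.07. Sqstm1, the autophagy adaptor p62 that sequesters KEAP1 and is itself an NRF2 target, led with 486 FPKM in GW3965 and 377 FPKM in DMSO (0.37). Nfe2l1, the related factor NRF1, was at 74.7 FPKM in GW3965 and 63.0 FPKM in DMSO (0.24), which put it at 0.734 times the level of Nfe2l2 in GW3965 and 0.437 times in DMSO. Palb2, whose protein can bind KEAP1, was at 1.04 and 1.41 FPKM (-0.23). Bach1, the repressor that heme removes from Hmox1, was at 8.9 FPKM in GW3965 and 9.7 FPKM in DMSO (-0.11), and was named after its value was seen.

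Glutathione genes were spread around 0. Of 22 listed, 20 reached 1 FPKM, 1 was at least 1.5-fold higher and 0 lower, with a median of 0.01. That gene was Ggct, which cleaves gamma-glutamyl amino acids, at 17.6 FPKM in GW3965 and 9.9 FPKM in DMSO (0.78), a gene the authors' deposited table does not call. Cth, which makes cysteine from cystathionine, was at 40.7 and 31.6 FPKM (0.36), and the aminopeptidase Anpep at 7.1 and 10.5 FPKM (-0.50).

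The remaining antioxidant systems lay close to all genes. Among 19 thioredoxin and peroxiredoxin genes 0 passed 1.5-fold and the median was -0.03, with Txnrd3 at 5.0 FPKM in GW3965 and 4.0 FPKM in DMSO (0.27), mitochondrial Prdx3 at -0.16 and the methionine sulfoxide reductase Msrb1 at -0.15. All 7 genes of superoxide and peroxide removal lay within 1.5-fold, with a median of 0.00, Ccs, the copper chaperone of superoxide dismutase, at -0.28, catalase (Cat) at -0.22 and the extracellular dismutase Sod3 at 0.10. Apart from Hmox1, genes of heme synthesis and breakdown had a median of -0.09 over 11 members and 0 past 1.5-fold. In that list Uros stood at 0.17, Blvra, which turns biliverdin into bilirubin, at -0.16 and Alad at -0.15.

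Slc7a11 and Nqo1 each belong to a second program as well. Slc7a11 is also a target of ATF4, and of 16 genes of that program 13 had a ratio above 0, beside 52.9% of all genes, 0 passed 1.5-fold, and the median was 0.12, beside 0.01 for all genes. Phgdh of serine synthesis was at 121 FPKM in GW3965 and 89.0 FPKM in DMSO (0.44), Ddit4, a brake on mTOR signalling, at 40.3 and 31.9 FPKM (0.33), and the stress factor Atf3 at 12.7 and 16.2 FPKM (-0.33). Atf4 mRNA was at 170 FPKM in both libraries. Nqo1 is also induced by the aryl hydrocarbon receptor, and of 9 genes of that battery 5 reached 1 FPKM, with 1 at least 1.5-fold higher. That gene was Cyp1a2, a liver cytochrome P450, at 57.0 FPKM in GW3965 and 13.4 FPKM in DMSO (2.01). Cyp1a1 was at 0.140 FPKM in GW3965 and 0.0899 FPKM in DMSO, Tiparp was at 6.4 and 5.2 FPKM (0.26), and the receptor gene Ahr at 20.2 and 17.4 FPKM (0.21). Of the 5 genes, 4 had a ratio above 0 and 1 below, which was Arnt, the partner of the receptor (-0.12). The part of either program in the ratios of Slc7a11 and Nqo1 was not tested.

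**Figure D4:**
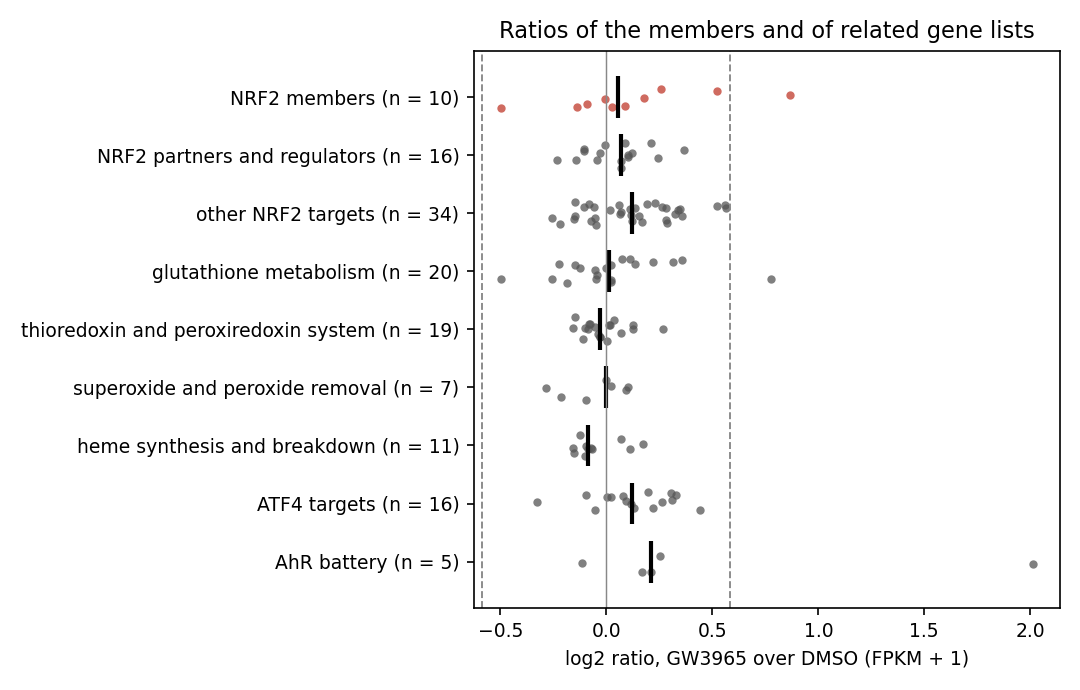
Log2 ratios of GW3965 over DMSO (horizontal axis, FPKM + 1) for the 10 members (red) and for genes of 8 related lists (grey) at 1 FPKM or more; each point is a gene, black bars are medians and dashed lines mark 1.5-fold. Medians run from -0.09 for heme genes to 0.21 for the aryl hydrocarbon receptor (AhR) battery. The median of that battery rests on the 5 of its 9 genes that reached 1 FPKM. Genes beyond the dashed lines are Hmox1, Ggct and Cyp1a2.

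Markers of other cells in the culture were measured beside these groups, and their part in the results was not tested. Hepatocyte markers summed to 3600.5 FPKM in GW3965 and 4054 FPKM in DMSO, mostly Fgb (2000 and 2458 FPKM, ratio -0.30). Their median ratio was 0.00 over 9 genes, 5 above 0 and 4 below, among them Serpina1a at -0.46, Hnf4a at -0.39 and Cps1 at 0.31. Stellate cell and fibroblast markers summed to 657 FPKM in GW3965 and 534 FPKM in DMSO, mostly Vim (547 and 432 FPKM), with a median of 0.21 over 9 genes and with Acta2 at 0.37 and Col1a1 at 0.34. Endothelial markers summed to 252 and 226 FPKM, with a median of 0.08 over 9 genes, Clec4g at -0.66, Tek at 0.38 and Cdh5 at 0.30. Cholangiocyte markers summed to 3398 and 4154 FPKM, nearly all Spp1 (3373 and 4131 FPKM), with Krt19 at 0.27 and Sox9 at 0.07. Only 4 of these 7 markers reached 1 FPKM. Epcam (0.155 FPKM in GW3965 and 0.210 FPKM in DMSO), Krt7 (0.0775 and 0.0604 FPKM) and Cftr (0.0186 and 0.00514 FPKM) did not. Lymphoid and granulocyte markers summed to 0.652 and 0.687 FPKM, none of the 9 reached 1 FPKM, and Ly6g was at 0 in both libraries.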

How the data were processed

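RNA of 1 culture per group was sequenced from TruSeq libraries, per the labels. Per the submitters' processing notes the builds were NCBIM37 and mm9 and the tools Cuffdiff, Cufflinks 2.0.2, TopHat2 2.0.6 and CASAVA. The sources used here do not give their settings, strand handling or scaling. The deposited table holds FPKM per gene and library, made by the authors. It also holds the authors' p-value and q-value, a test score whose sign is opposite to the fold, a log2 fold change and a signed fold.

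The members and lists were chosen with earlier results of these data known. The 7 genes marked for too many fragments, albumin among them, were left out. Ratios used a pseudocount of 1 FPKM, counts a minimum of 1 FPKM in either library and a 1.5-fold threshold, and no test was run. All members were named, and of each other list the 3 largest ratios in size; others were chosen after their values were seen. Symbols absent from the table or listed more than once were matched by Ensembl identifier. Standard errors were the log2 fold over the authors' score. Starts in the table were moved up by 1, because 58.5% of 19846 single-gene loci have the GENCODE M21 length only if starts count from 0. Depth was the commonest value that 1 fragment explains among low genes with 1 annotated transcript, after taking 156 (GW3965) or 158 (DMSO) bases off the length. Fragments of a member were estimated at its shortest GENCODE transcript, and exact binomial 95% intervals from them cover counting error only. Promoter windows came from RefSeq, build GRCm38.p6. The scripts were tested on simulated data. Alternatives were other pseudocounts, minimums, fold thresholds and scalings, and the genes the authors tested. The software was matplotlib 3.10.9, scipy 1.17.1, pandas 2.3.3 and numpy 2.4.6 under Python 3.11.15.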

Additional observations from a re-analysis of the deposited data

How the results depend on the processing

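The count of members past the threshold moved with the threshold itself: at 2-fold it was 0 higher, and at a log2 ratio of 0.32 in size it was 2 higher and 1 lower. With a pseudocount of 0.1 or 5, centring on the median of all genes, or scaling to 1 FPKM sum, the counts stayed at 1 higher and 0 lower. A minimum of 5 FPKM or none, or only the genes the authors tested, kept all 10 members with unchanged ratios. Those settings therefore could not move the counts. The median of the members ran from 0.046 after centring to 0.059 after scaling to 1 sum. All 10 members kept the sign of their ratio under the 4 alternatives run on single ratios (both pseudocounts and both scalings). A pseudocount added equally to both libraries cannot change a sign, so only the scalings could have done so. With a pseudocount of 5 the ratio of Slc7a11 was 0.39 and that of Hmox1 0.83, and with 0.1 they were 0.56 and 0.87. No paired analysis was possible because the study has a single library per condition. Among the members, the estimated fragments at the shortest transcripts were fewest for Gclm, Keap1 and Slc7a11. They were about 170, 228 and 340 in GW3965 and 135, 194 and 184 in DMSO, in that order. These are low estimates: the shortest transcripts have 292, 317 and 481 bases and the longest 5589, 3614 and 9223.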
